A study of Mus musculus with 3 samples.

Results

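The cytochrome P450 genes of the mouse choroid plexus epithelium (CPE) were taken as every non-control probe whose gene name on the array starts with *Cyp* and a digit. This gave 73 genes and 107 probes, out of 27845 gene names and 41174 probes. Of the 73 genes, 45 had 1 probe and 28 had several, with at most 3 for a gene.

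The CPE is the epithelium that covers the choroid plexus in the brain ventricles and makes cerebrospinal fluid. It was laser dissected from the lateral ventricles of 3 healthy adult female wild type C57BL/6 mice. The RNA of the CPE was amplified, and each mouse was hybridized to an array of its own. The CPE RNA carried the Cy5 dye. All 3 arrays shared a reference labelled with Cy3, an RNA of the mixed eye tissue RPE/choroid (retinal pigment epithelium with the vascular layer behind it) from C57BL/6 mice. The 3 CPE samples form 1 group without treatment, numbered mouse 1 to 3 as in the labels, and no array had the dyes exchanged, so that a probe's preference for Cy5 or Cy3 is part of each ratio.

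Cytochromes P450 are haem enzymes that insert an oxygen atom into fats, sterols, vitamins, hormones and foreign compounds. Most sit in the endoplasmic reticulum and receive electrons from P450 oxidoreductase (*Por*) and cytochrome b5, and those in mitochondria receive them through ferredoxin. The families that oxidize drugs are best known from the liver, while the *Cyp26* enzymes break down retinoic acid and others make bile acids, steroid hormones and active vitamin D.

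Each probe was given a level and a ratio. The level is the mean log2 intensity of the CPE channel, expressed as a percentile among all 41174 probes: above 90 is called high, 50 to 90 moderate, 10 to 50 low and under 10 very low. The ratio is the log2 of CPE over reference, so that 1 is 2-fold higher in CPE. It was tested against 0 with limma, and a probe was called higher or lower at an adjusted p under 0.05 with at least a 2-fold change. A probe was tested when its signal was well above background, as marked by the scanner software, on all 3 arrays in at least 1 channel.

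The arrays differed in background. The median fitted background of the CPE channel was 81.2 and 82.6 scanner units for mice 1 and 2, against 363 for mouse 3. Log2 ratios of different mice correlated with r from 0.825 to 0.909 over 17944 probes measured in both channels. All 11 CPE marker genes on the array, such as transthyretin, were in the high class, and 10 of them were higher in CPE than in the reference. Of the 10 markers of RPE and melanocytes, 9 were lower in CPE.

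The promoters of a few members are shown first, since the results turn on these genes: both retinoic acid enzymes, the neighbouring *Cyp2a4* and *Cyp2a5*, and *Cyp2s1*. Each sequence holds the 250 bases before the transcription start on the gene's own strand, from RefSeq on GRCm38.p6. The stretches are chr19:37697558-37697807 (plus strand) for *Cyp26a1*, chr6:84593811-84594060 (minus strand) for *Cyp26b1*, chr7:26306942-26307191 (plus strand) for *Cyp2a4*, chr7:26835089-26835338 (plus strand) for *Cyp2a5* and chr7:25816526-25816775 (minus strand) for *Cyp2s1*. Capitals mark a repeat of TGAACT with 5 bases between in *Cyp26a1*, and the letters TATAAA in *Cyp26b1*, *Cyp2a4* and *Cyp2a5*.
Cyp26a1: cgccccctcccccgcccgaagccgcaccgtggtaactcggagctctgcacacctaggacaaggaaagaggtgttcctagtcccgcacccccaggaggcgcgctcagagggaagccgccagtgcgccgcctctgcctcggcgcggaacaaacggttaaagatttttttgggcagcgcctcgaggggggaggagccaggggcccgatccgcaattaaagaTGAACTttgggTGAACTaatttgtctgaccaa
Cyp26b1: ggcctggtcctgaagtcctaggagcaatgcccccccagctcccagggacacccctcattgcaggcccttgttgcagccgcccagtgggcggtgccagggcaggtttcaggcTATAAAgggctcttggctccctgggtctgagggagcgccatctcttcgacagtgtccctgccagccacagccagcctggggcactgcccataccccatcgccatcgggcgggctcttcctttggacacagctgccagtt
Cyp2a4: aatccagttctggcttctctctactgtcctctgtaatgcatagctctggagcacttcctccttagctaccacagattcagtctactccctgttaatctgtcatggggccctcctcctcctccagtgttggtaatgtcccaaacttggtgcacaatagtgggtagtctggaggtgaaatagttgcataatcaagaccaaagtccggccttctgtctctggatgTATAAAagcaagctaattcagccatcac
Cyp2a5: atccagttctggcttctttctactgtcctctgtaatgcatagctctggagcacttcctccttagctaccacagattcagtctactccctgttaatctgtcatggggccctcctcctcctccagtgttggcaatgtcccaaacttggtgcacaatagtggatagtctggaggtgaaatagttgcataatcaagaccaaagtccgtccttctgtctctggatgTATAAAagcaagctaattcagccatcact
Cyp2s1: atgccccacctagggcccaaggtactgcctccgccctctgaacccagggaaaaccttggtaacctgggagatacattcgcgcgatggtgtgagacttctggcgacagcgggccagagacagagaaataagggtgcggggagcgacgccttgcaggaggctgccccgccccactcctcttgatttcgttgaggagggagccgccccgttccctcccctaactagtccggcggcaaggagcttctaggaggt

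The capitals in *Cyp26a1* read on the other strand as AGTTCA, any 5 bases and AGTTCA again, a form of the retinoic acid response element, and begin 32 bases before the start. This motif, searched on both strands, was in 7 of 32851 such promoters of all genes (0.0213%). Among the 88 promoters of genes named *Cyp* it was found in *Cyp26a1* alone. Only this exact spelling and spacing was searched, which is the one *Cyp26a1* carries, so the hit there was fixed by that choice. Other forms of the element may be present in any of these promoters. TATAAA, the core letters of a TATA box and also searched on both strands, was in 12.4% of all promoters and in 30 of the 88. It began 28 bases before the start in *Cyp2a4* and 29 in *Cyp2a5*, but 139 in *Cyp26b1*. The *Cyp2a4* and *Cyp2a5* promoters shared 245 of 249 aligned bases (98.4%). Neither motif was found in the 250 bases of *Cyp2s1*. A match is a description of the letters, and binding was not measured.

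No P450 probe reached the high class, which by its definition holds 10% of all probes. Of the 107 probes, 36 were moderate, 59 low and 12 very low. The moderate probes belonged to 27 of the 73 genes. The brightest was *Cyp4f13*, of a subfamily that oxidizes leukotrienes and other fatty acids, at percentiles 88.5, 85.5 and 85.0 in mice 1, 2 and 3. The 3 mice lay close together, and the mean level was at percentile 87.0. After it came the brighter probe of *Cyp1b1* at 80.0 and *Cyp2j6* at 79.9. Percentiles rank probes, whose brightness also depends on the probe, and are no measure of transcript number between genes.

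Many P450 probes were dim. In the CPE channel 27 of 107 (25.2%) were well above background on all 3 arrays, against 44.9% of all probes. In the reference channel the numbers were 51 (47.7%) against 61.5%. A set of 15 P450 probes was above background in CPE on no array (14.0%, against 12.1% of all probes). By mouse, 46, 28 and 89 P450 probes were above background in CPE (43.0%, 26.2% and 83.2%), where 58.5%, 46% and 85.6% of all probes were. Mouse 3, with the high background, stood apart over the whole array, and 46 of its 89 P450 probes were not above background in the other two mice. By gene, 23 of 73 had a probe above background in CPE in all 3 mice.

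**Figure D1:**
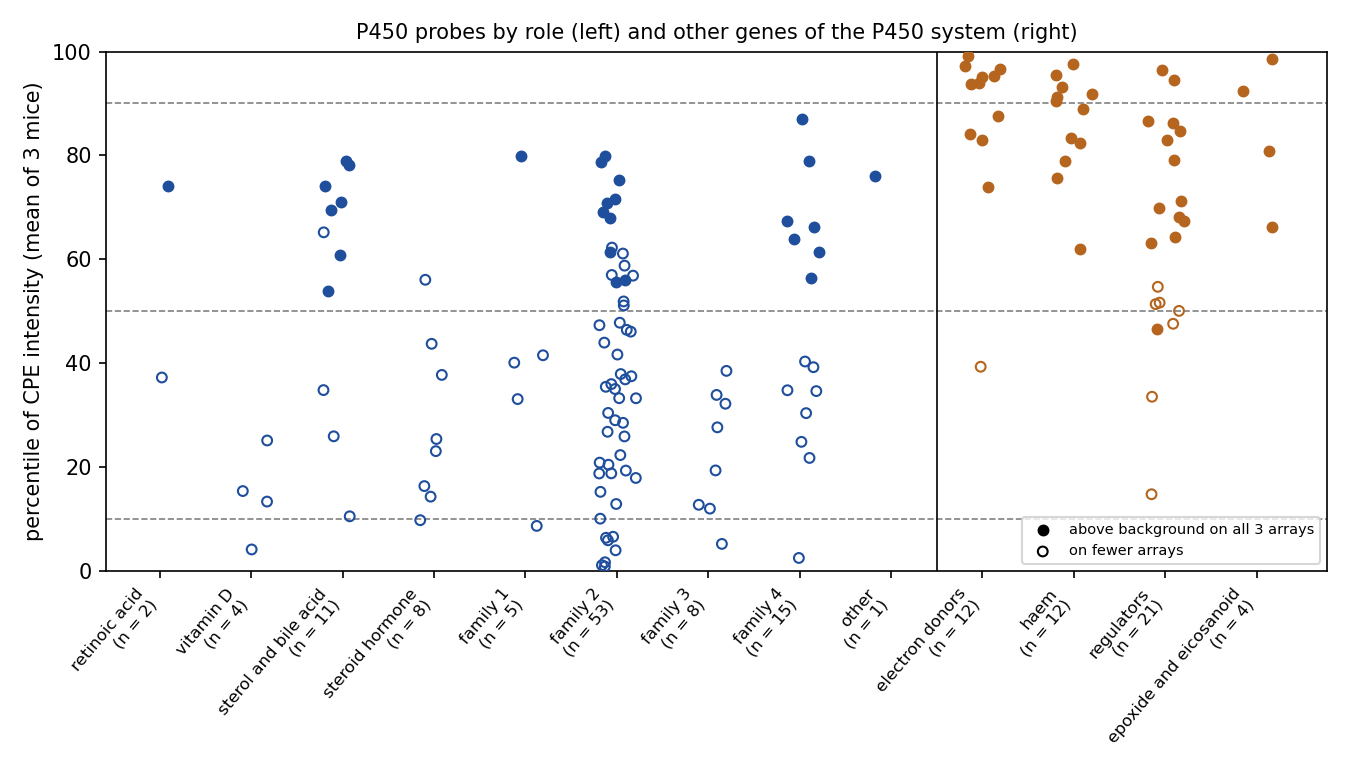
Percentile of CPE intensity (mean of 3 mice, y axis) for each of the 107 P450 probes by role group. Also shown is 1 probe per gene of the electron donors (with *Pgrmc1* and *Pgrmc2*), haem genes, regulators and epoxide and eicosanoid genes. Filled points were above background on all 3 arrays, and dashed lines mark the 10th, 50th and 90th percentile. No P450 probe lies above the 90th. Of the 49 other genes 17 do, but each is shown by its brightest probe over both channels, while every P450 probe is shown.

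Against the reference, 51 of the 107 probes, from 40 genes, could be tested. Of these 2 were higher in CPE, where 7.09% of all 25838 tested probes were, and 9 were lower, where 10.2% of all were. Together 11 of 51 passed, beside 17.3% of all. The median log2 ratio of the 51 was -0.07, beside -0.04 for all tested probes. Of the 51, 27 were measured in both channels and 24 through the reference alone, and the latter were thus selected on a signal in the reference. Among the 27 measured in both, 2 were higher and 2 lower. Of all 17944 probes measured in both channels, 1615 were higher and 2030 lower. Centring each array on its median in place of loess gave 4 higher and 8 lower P450 probes, and moved the higher share of all calls from 41.1% to 67.0%. A further 11 probes had an adjusted p under 0.05 with a change under 2-fold. At any fold change, 22 of the 51 were under 0.05, beside 10127 of all 25838 tested probes. In dissected tissue, fewer cells of a type and less RNA per cell cannot be told apart.

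The higher genes were *Cyp2s1* and *Cyp2u1*. *Cyp2s1* codes for an enzyme found mainly in epithelia, and its probe lies at chr7:25511245-25511304 (minus strand, mm8). Its log2 ratios were 1.28, 1.90 and 0.88 in mice 1, 2 and 3. All 3 mice were above 0, with mouse 3 the lowest. The mean was 1.35 (SE 0.21, n = 3), 2.56-fold, with a limma adjusted p of 0.00223. The probe was at percentile 78.7 in CPE and 53.3 in the reference. Another *Cyp2s1* probe, made to another transcript, was at percentile 1.20 and above background in neither channel, so the call rests on 1 probe.

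*Cyp2u1* codes for a fatty acid hydroxylase known from brain, with its probe at chr3:131287005-131287064 (minus strand, mm8). The log2 ratios were 1.44, 1.28 and 0.49. Again all were above 0 and mouse 3 was the lowest. The mean was 1.07 (SE 0.21, n = 3; limma adjusted p 0.00617), just past 2-fold. Without mouse 1 it was 0.89, without mouse 2 it was 0.96, and neither value was called. Just outside the threshold, a probe of *Cyp4f16* had ratios of 1.33, 0.92 and 0.62 and a mean of 0.95 (SE 0.18, limma adjusted p 0.00529). The other *Cyp4f16* probe had a mean of 0.30.

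The lower probes came from 7 genes, and most lay in a pair of gene clusters. These stretches were chosen because they hold called probes, so their shares of lower probes follow from that choice. Over all tested probes 10.2% were lower. The *Cyp2a4* and *Cyp2a5* probes are also not independent, as given below. On chromosome 7, 18 P450 probes of 10 genes lay between 25511245 and 26842370 (mm8). Of their 7 tested probes 5 were lower, all from *Cyp2a4*, *Cyp2a5* and *Cyp2f2*, and 1 was higher, *Cyp2s1*. On chromosome 4, 8 probes of 6 genes of family 4 lay between 114604321 and 115122913, and of 4 tested probes 3 were lower, from *Cyp4a12*, *Cyp4a12b* and *Cyp4b1*. The other lower gene was *Cyp26a1* on chromosome 19. Of the 9 lower probes, 7 were not above background in CPE on every array and were tested through the reference alone.

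The largest difference among the tested P450 probes was in *Cyp2f2*, a club cell enzyme of the lung that activates naphthalene, with its probe at chr7:26842311-26842370 (plus strand, mm8). Its log2 ratios were -5.02, -4.66 and -3.53. Every mouse was far below 0. The mean was -4.40 (SE 0.27, n = 3), 21.2-fold lower in CPE, with a limma adjusted p of 3.36e-05. Its level was nonetheless moderate in CPE, at percentile 70.8 and above background in all 3 mice. In the reference it was at percentile 98.3, and *Cyp2f2* and *Cyp2a5* were the only P450 probes in the high class there.

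*Cyp2a5* oxidizes coumarin and nicotine. Its probe (chr7:26551910-26551969, plus strand, mm8) had log2 ratios of -3.81, -3.48 and -0.33. Mouse 3 was near 0 and the others far below it. In mouse 2 the CPE signal was not above background, so its ratio is set against a background-level value and is not exact. The mean was -2.54 (SE 0.59, n = 3; limma adjusted p 0.0121), and without mouse 3 it was -3.64, with the same limit. *Cyp2a4*, a testosterone hydroxylase, had 3 probes with means of -1.56, -1.53 and -1.44 (limma adjusted p 0.0104, 0.00270 and 0.00868), and in mouse 3 they were again nearest to 0, at -0.34, -0.88 and -0.39. In CPE the first 2 of these probes were above background in mice 1 and 3, and the third in mouse 3 alone. Their means without mouse 3, -2.17, -1.85 and -1.96, thus rest largely on background-level CPE values. The *Cyp2a4* probes also list the *Cyp2a5* transcript, and 2 of the 3 share 20 of their 60 bases of genome. The 4 probes are thus not independent, and the genes cannot be told apart here.

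*Cyp4a12* and *Cyp4a12b*, which hydroxylate arachidonic acid, also list each other's transcripts and count as 1 measurement. The *Cyp4a12* probe (chr4:114830670-114830729, plus strand, mm8) had log2 ratios of -2.63, -2.36 and -2.67. The mean was -2.55 (SE 0.16, n = 3; limma adjusted p 3.15e-05). In mouse 3 the CPE signal was below the fitted background, at -7.36 scanner units, so that ratio is not exact. With the scanner log ratio the mice were further apart, at -3.63, -3.57 and -6.41. For *Cyp4a12b* the ratios were -2.51, -2.11 and -1.95, with a mean of -2.19 (SE 0.17, limma adjusted p 8.98e-05). Both were low in CPE, at percentiles 30.4 and 34.7, and above background there in 2 of 3 mice. For *Cyp4a12b* the CPE signal of mouse 2 was not above background, so its ratio is not exact either. In the reference they were at percentiles 80.7 and 79.0.

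*Cyp4b1*, which hydroxylates fatty acids and activates plant toxins, was the third of this cluster (chr4:115122854-115122913, minus strand, mm8). Its log2 ratios were -1.24, -0.96 and -0.91. They lay just around the 2-fold line, with a mean of -1.04 (SE 0.16, n = 3; limma adjusted p 0.00192). Its level was moderate, at percentile 63.9. Without mouse 1 the mean was -0.94, which was not called.

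**Figure D2:**
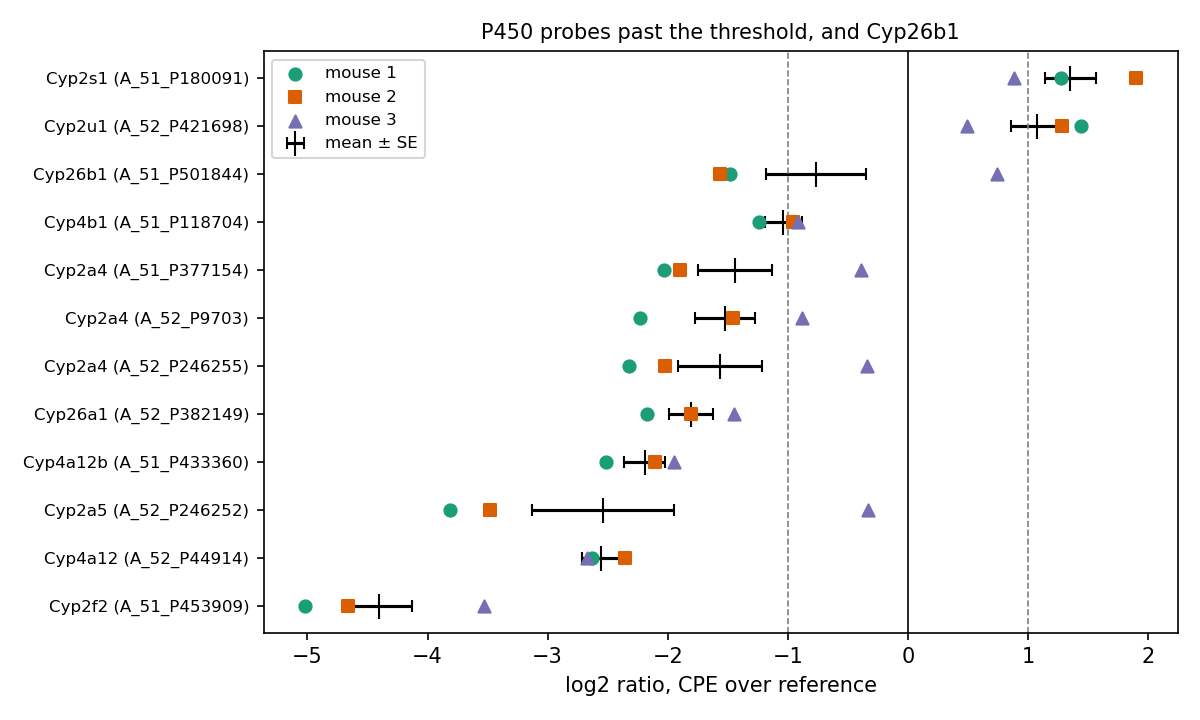
Log2 ratio of CPE over reference (x axis) for the 11 P450 probes past the threshold and for *Cyp26b1*, with a symbol for each mouse and the mean with its limma SE (n = 3). Dashed lines mark 2-fold, and mouse 3 lies apart for *Cyp2a5*, *Cyp26b1* and *Cyp2a4*.

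The retinoic acid enzymes were *Cyp26a1* and *Cyp26b1*, each with 1 probe. The *Cyp26a1* probe (chr19:37766220-37766279, plus strand, mm8) had log2 ratios of -2.17, -1.80 and -1.45. All mice were lower than the reference, with a mean of -1.81 (SE 0.18, n = 3; limma adjusted p 0.000293). It was low in CPE, at percentile 37.3, and above background there in 2 of 3 mice. In mouse 2 its CPE signal was not above background, so that ratio is not exact. The probe was thus tested through the reference alone, and so was selected on a signal there. *Cyp26a1* is the gene whose promoter holds the repeat shown above.

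*Cyp26b1* (chr6:84537616-84537675, minus strand, mm8) had log2 ratios of -1.48, -1.57 and 0.74. Mice 1 and 2 were below the reference and mouse 3 was above it. The mean was -0.77 (SE 0.42, n = 3; limma adjusted p 0.184) and was not called, while without mouse 3 it was -1.52 with an adjusted p of 0.00153 and was called lower. The CPE percentile was 64.4, 62.8 and 89.7, so that in mouse 3 it lay at the edge of the high class. Its CPE intensity over the fitted background was 245, 87.5 and 1803 scanner units.

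Before any scaling between arrays, dim probes in general had more CPE signal in mouse 3. The median over the 107 P450 probes was 19.6, 8.24 and 241 scanner units over background in mice 1, 2 and 3, and over all 41174 probes it was 56.0, 20.3 and 321. Of the P450 probes, 84 were highest in mouse 3 (78.5%, against 63.0% of all probes). The *Cyp2a5* probe had 46.5, 29.0 and 1077, and *Cyp2f2* had 237, 182 and 637. *Cyp11b2*, chosen here after its values were seen, had 18.5, 5.30 and 887, while the brighter *Cyp2s1* had 572, 597 and 684. On the scale of the normalized ratios, among the 51 tested probes, 5 had a log2 ratio in mouse 3 more than 1 above the mean of the others (9.80%, against 1.75% of all tested probes), namely *Cyp2a5*, *Cyp26b1*, *Cyp2f2* and 2 probes of *Cyp2a4*. The *Cyp2a5* and *Cyp2a4* probes are not independent, so this share does not count separate genes. They were tested through the reference alone, and in mouse 2 their CPE signal was not above background. A probe of *Cyp2d9* was more than 1 below (1.96%, against 3.25%). The median SD between mice was 0.24 for the P450 probes and 0.26 for all.

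Markers of several other cell types also differed between mouse 3 and the others. Of 3 astrocyte markers, *Slc1a2* had log2 ratios of -1.16, -1.05 and 0.15, *Aqp4* had -1.35, -1.61 and -0.86, and *Gfap* had 0.44, 0.83 and 0.05. The first 2 were highest in mouse 3 and *Gfap* was lowest there, and all 3 were above background in CPE on every array. The median of 5 stroma markers was level, at -2.08, -1.96 and -1.98. The median of 10 RPE and melanocyte markers was -5.69, -5.71 and -4.83, and that of 6 endothelium markers was 0.71, 0.51 and 0.26. For 2 ependyma markers it was 3.42, 2.57 and 1.70, for 4 neuron markers -4.19, -3.60 and -3.13, and for 5 macrophage markers -1.33, -1.26 and -1.93. For 6 photoreceptor markers it was -4.89, -4.97 and -4.57, and for 3 red blood cell markers -1.66, -2.34 and -1.83. A ratio below 0 does not show that a cell type was absent from the CPE samples. In the CPE channel the median percentile was 95.7, 97.0 and 96.4 for the stroma markers and 99.2, 99.1 and 98.3 for the red blood cell markers. The lowest of these medians for any of the other cell types was 56.4, of the neuron markers in mouse 1. The part of these cells, or of the higher background on that array, in the P450 values was not tested.

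**Figure D3:**
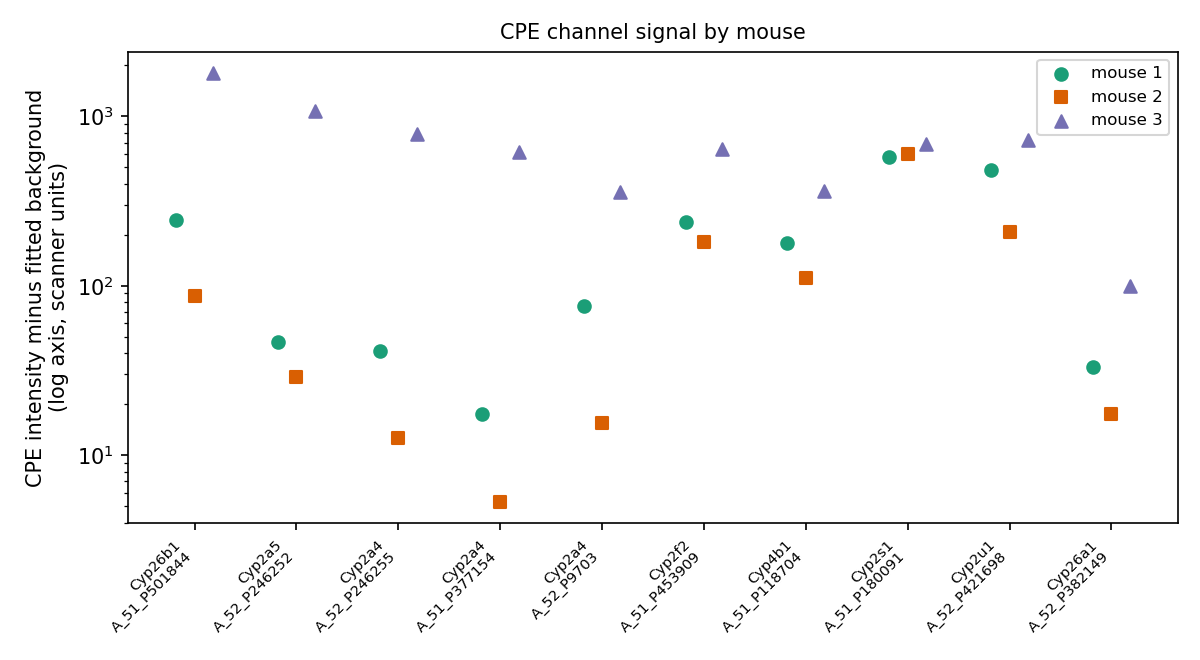
CPE intensity minus the fitted background (y axis, log scale, scanner units, not scaled between arrays) for 10 probes of the genes described above, with a symbol for each mouse. *Cyp26b1*, *Cyp2a5* and *Cyp2a4* are highest in mouse 3, as 84 of the 107 P450 probes are, while *Cyp2s1* is nearly level.

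The sterol and bile acid group covers cholesterol synthesis and its breakdown. Of its 11 probes from 7 genes, 8 were above the 50th percentile and 7 above background in CPE on all arrays. None was past the threshold, but *Cyp7b1* was with median centring, and *Cyp46a1* and *Cyp27a1* were with the scanner log ratio. *Cyp7b1*, which hydroxylates oxysterols, stood at percentile 79.0 with log2 ratios of 0.43, 0.97 and 0.15. All were above 0, but the mean of 0.52 (SE 0.19) had a limma adjusted p of 0.0672. *Cyp51*, the lanosterol demethylase of cholesterol synthesis, had 3 probes at percentiles from 65.2 to 78.1, and their mean ratios, from -0.41 to -0.10, had adjusted p from 0.165 to 0.643. With median centring the brightest of these probes was at 0.36.

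In this group 3 genes reached an adjusted p under 0.05 with a change under 2-fold. *Cyp27a1*, a mitochondrial sterol hydroxylase, had log2 ratios of -0.68, -0.84 and -0.97 and a mean of -0.83 (SE 0.15, limma adjusted p 0.00465). *Cyp46a1*, the cholesterol hydroxylase of brain, had 0.68, 0.51 and 0.39 and a mean of 0.53 (SE 0.15, limma adjusted p 0.0295). *Cyp39a1*, another oxysterol hydroxylase, had a mean of 0.63 for 1 probe and 0.40 for the other, with adjusted p of 0.0331 and 0.0810. The mice had the same sign for each of these. The liver enzymes of bile acid synthesis, *Cyp7a1* and *Cyp8b1*, were low, at percentiles from 10.6 to 34.9, and were not tested.

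The vitamin D and steroid hormone enzymes were dim. The 4 probes of *Cyp24a1*, *Cyp27b1* and *Cyp2r1* lay at percentiles from 4.23 to 25.2, and 3 of them were above background in CPE in no mouse. The 8 probes of the steroid hormone genes *Cyp11a1*, *Cyp11b2*, *Cyp17a1*, *Cyp19a1* and *Cyp21a1* were above background in CPE on some arrays but never on all 3. The brightest was *Cyp11b2*, at percentiles 32.2, 26.8 and 78.7. Its mean level, at percentile 56.1, rests on mouse 3, the only mouse in which it was above background, and without mouse 3 it was at 29.8. In each group 1 probe was tested, of *Cyp27b1* with a mean log2 ratio of -0.07 and of *Cyp11a1* also with -0.07, and neither was called. A transcript below this limit may still be present.

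The first 3 families oxidize foreign compounds. In family 1, *Cyp1b1* was at percentile 80.0 with log2 ratios of -0.56, -0.44 and -0.86 and a mean of -0.62 (SE 0.16, limma adjusted p 0.0188), under 2-fold. Another *Cyp1b1* probe, made to another transcript, was at percentile 41.6. It was above background in CPE in mouse 3 alone and was not tested. *Cyp1a1*, the classic target of the aryl hydrocarbon (Ah) receptor, was very low, at percentile 8.75, and above background in neither channel. Family 2, with 53 probes of 34 genes, had 17 probes above the 50th percentile and 10 above background in CPE on all arrays. Those 10 were of *Cyp2d9* (2 probes), *Cyp2d10*, *Cyp2d22*, *Cyp2f2*, *Cyp2j6*, *Cyp2j9*, *Cyp2j13*, *Cyp2s1* and *Cyp2u1*, while none of the 14 probes of *Cyp2c* genes was. Of the 8 probes of family 3, the main drug enzymes of the liver, 0 were above the 50th percentile and 0 above background in CPE on all arrays.

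In family 4, 7 of 15 probes were above background in CPE on all arrays. *Cyp4f13* had log2 ratios of 1.00, 0.53 and 0.51, with a mean of 0.68 (SE 0.17, limma adjusted p 0.0161). *Cyp4f15* had 0.46, 0.60 and 0.47, with a mean of 0.51 (SE 0.15, limma adjusted p 0.0302). Both were above 0 in every mouse and under 2-fold. Over the 5 tested *Cyp4f* probes the means ran from 0.11 to 0.95. *Cyp20a1*, an orphan member, was at percentile 76.0 with a mean of 0.51 (SE 0.16, limma adjusted p 0.0349).

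**Figure D4:**
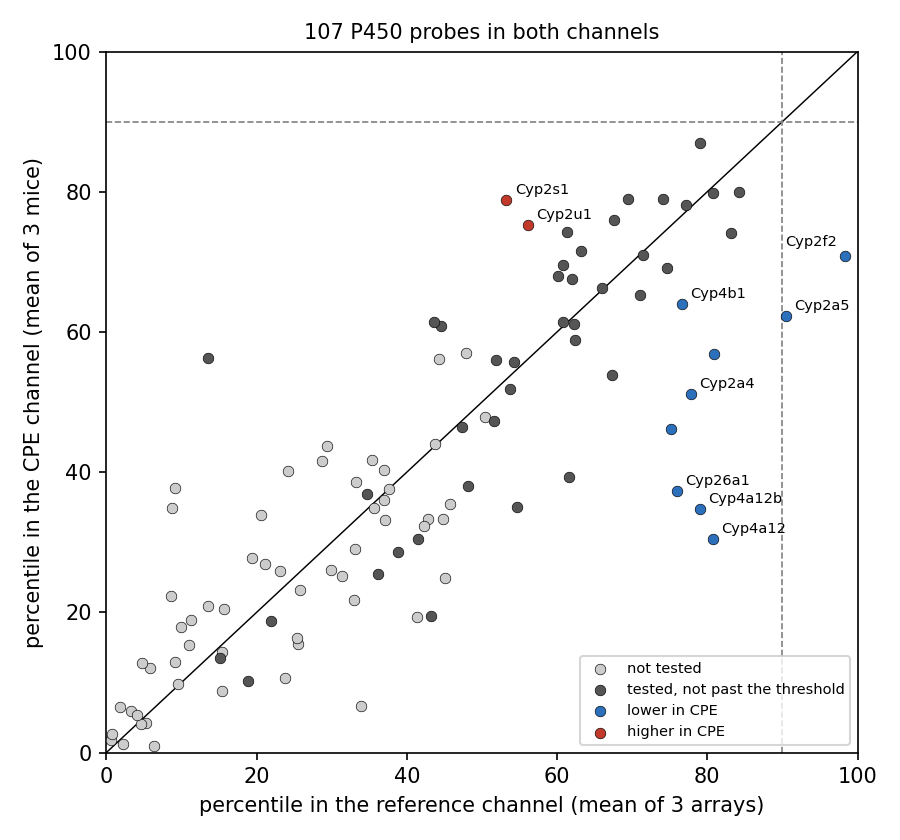
Percentile of each of the 107 P450 probes in the reference channel (x axis) and in the CPE channel (y axis), coloured by call, with dashed lines at the 90th percentile and the line of equal percentile. The 9 lower probes lie to the right, most of them bright in the reference, and *Cyp2s1* and *Cyp2u1* lie above the line.

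Probes of a gene did not always give the same level. For 13 of the 28 multi-probe genes the probes fell into different classes. No gene had probes called in opposite directions. Of the 107 probes, 23 listed more than 1 RefSeq transcript, so that transcripts of close paralogs may share a probe.

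The enzymes depend on other proteins for electrons, haem and control. Each of these genes was taken at its brightest probe over both channels, which favours a high class, while every P450 probe was kept. Of all tested probes 7.09% were higher in CPE and 10.2% lower. All 12 genes of the electron donor list were on the array and 7 were in the high class. These 7 include *Pgrmc1* and *Pgrmc2*, which the list holds though they are not electron donors. *Por* itself was at percentile 95.2 and had log2 ratios of -0.52, 0.08 and 0.09, with a mean of -0.12 (limma adjusted p 0.652). *Pgrmc1*, a haem protein that binds P450 enzymes, was higher in CPE, at 1.66, 1.43 and 1.42 (mean 1.50, SE 0.15, limma adjusted p 0.000305). *Cyb5a*, cytochrome b5, was lower at -1.67, -1.93 and -1.58 (mean -1.73, SE 0.16, limma adjusted p 0.000178), though still in the high class.

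Of the 12 haem genes 6 were in the high class, 2 were higher and none was lower. *Alas1*, the rate-limiting enzyme of haem synthesis, had log2 ratios of 1.28, 1.05 and 1.08, with a mean of 1.14 (SE 0.15, limma adjusted p 0.00108). *Hmox1*, which breaks haem down, had 1.67, 1.48 and 0.64, with a mean of 1.26 (SE 0.22, limma adjusted p 0.00350). Of the 4 epoxide and eicosanoid genes, the epoxide hydrolase *Ephx1* was at percentile 98.6 and higher, with a mean of 1.24 (SE 0.17, limma adjusted p 0.00135). *Ephx2* was also in the high class, at 92.4, with a mean of -0.34.

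Of 21 regulators, 17 were tested, 2 were higher and 3 lower. *Srebf2*, a regulator of sterol synthesis, had a mean log2 ratio of 1.75 (SE 0.15, limma adjusted p 0.000148), and the oxysterol receptor *Nr1h2* had 1.21 (SE 0.20, limma adjusted p 0.00273). Lower were *Ahrr*, the repressor of the Ah receptor, at -1.55 (SE 0.25, limma adjusted p 0.00244), and the retinoid receptors *Rxrg* at -1.05 (SE 0.20, limma adjusted p 0.00564) and *Rarb*, which was 2.00-fold lower and so at the threshold (limma adjusted p 0.00235). Over all 49 of these genes 45 were tested, with a median log2 ratio of 0.21, 6 higher and 4 lower, beside 7.09% and 10.2% of all tested probes. With each array centred on its median in place of loess, which moved the median of all tested probes from -0.04 to 0.09, 18 were higher and 2 lower, so these counts depend on the scaling.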

How the data were processed

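The authors scanned the arrays and extracted the spots in Agilent Feature Extraction 9.5.3.1. The deposited scanner tables give a linear intensity for Cy5 and for Cy3 at each spot and, per the file headers, the software's log10 ratio of its processed channels. The deposited table of the series holds log2 levels that the authors normalized between arrays (Aquantile, R 2.14.0 and limma, per the submitters' processing notes). It tracked the CPE channel (Spearman 0.998, 0.998 and 0.999), with medians of 6.86, 6.82 and 6.85. Whether those values were corrected for background is not given in the sources used here. Coordinates are those of the array files, on mm8.

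In the present work, levels were log2 mean intensities without background correction, after Aquantile, averaged over 3 mice and ranked over 41174 probes. Ratios were corrected with normexp (offset 50), normalized with loess and tested against 0 in limma 3.58.1 (R 4.3.3), with Benjamini-Hochberg adjustment over 25838 tested probes. Control probes and outlier spots were left out, and a signal well above background exceeded the background by 2.6 SD as the scanner software sets it. The fit was tested on simulated data. The reference is 1 RNA, so its own spread between animals does not enter the test, and the number of arrays, 3, limits the precision. No P450 probe was saturated or had a bound of 2-fold or more. For the named probes the rule took those past the threshold, those with the largest SD between mice, and the brightest probe of each gene of the retinoic acid, vitamin D, sterol and steroid groups. Other members, such as *Cyp4f13*, *Cyp2j6* and *Cyp1b1*, were named after their values were seen. Members and lists were chosen with earlier results of these data known. Of the 107 probes, 94 matched the RefSeq table by accession, and *Cyp2c44*, *Cyp3a41* and *Cyp4a12* have newer symbols there. Symbols are printed as on the array, except *Cyb5a*. *Cyp2u1* is not in the promoter table.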

Additional observations from a re-analysis of the deposited data

How the results depend on the processing

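The alternatives were no background correction, the scanner's own log ratio, median centring, no filter on dim probes, only probes measured in both channels, and leaving out each mouse; the fitted background surface was added after seeing the data. Of 162 ratios of named probes under these alternatives, 147 kept their sign and their side of the threshold, 4 gained a call, 8 lost one and 3 uncalled ratios changed sign: *Cyp51* from -0.10 to 0.36 with median centring, *Cyp11a1* from -0.07 to 0.0415 without mouse 1 (-0.235 to 0.0415 when leaving out a mouse) and *Cyp27b1* from -0.07 to 0.0139 without mouse 3 (-0.133 to 0.0139), and of 253 percentiles 33 moved by more than the spread between mice. Against 2 higher and 9 lower P450 probes, no background correction gave 1 higher, the scanner log ratio 5 higher, median centring 4 higher, and the restriction to both channels 2 lower. The other 7 lower probes were not tested under that restriction, so they are outside the 162 ratios and the 8 lost calls there. Leaving out a mouse gave from 1 to 3 higher and from 8 to 10 lower. *Cyp2u1* was not called without mouse 1, without mouse 2 or without background correction, and *Cyp4b1* not without mouse 1, without background correction or with median centring. *Cyp2a5* and a *Cyp2a4* probe missed the adjusted p with the scanner log ratio (0.0541 and 0.0527). *Cyp26b1* was called lower without mouse 3, as was *Cyp4f16* higher. In the sterol group, *Cyp7b1* was called higher with median centring. With the scanner log ratio *Cyp46a1* was called higher and *Cyp27a1* lower. For the other genes of the P450 system, against 6 higher and 4 lower, no background correction gave 2 lower, and median centring gave 18 higher and 2 lower, while leaving out a mouse gave from 2 (without mouse 1) to 5 lower. The high class held 0 P450 probes under every ranking tried. Against 36 above the 50th percentile, ranking curated accessions alone gave 20 of 96, and ranking probes above background in CPE alone gave 7 of 27, both over fewer probes, and leaving out a mouse gave from 31 to 36. The cause of the other changes was not tested. Dim signals, 3 arrays, a reference without replicates and dyes that were not swapped limit these results. No paired analysis was possible because the study has 1 group, and with 1 array per slide the slide was not fitted as a block.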
